A study of Mus musculus with 2 samples.

Results

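The 7 microRNA genes described here are Mir204 and Mir211, which lie inside the ion channel genes Trpm3 and Trpm1, and Mir448, Mir764, Mir1264, Mir1298 and Mir1912, which lie inside the serotonin receptor gene Htr2c. They were chosen by gene identifier because these genes and hosts are linked to the choroid plexus, and they are 7 of the 2202 microRNA genes counted. Short RNA was sequenced from hippocampus tissue of female mice aged 25 days, of the B6CASTF1/J strain, the first-generation hybrid of C57BL/6J and CAST/EiJ. There are 2 libraries, biological replicates 1 and 2, in a single group with no treatment named and no control group. The labels give them separate tissue samples whose names carry different numbers, and 1 donor identifier, which in ENCODE usually stands for a mouse strain. They do not state outright that the samples come from separate mice, nor which hippocampal layer was taken.

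A microRNA is cut from a hairpin in a longer transcript, and each of the hairpin's arms can give a mature RNA. Bases 2 to 8 of the mature RNA, the seed, set most of its pairing with target mRNAs. A microRNA inside an intron is often made from the host's transcript. The choroid plexus is a ciliated epithelium of the brain ventricles that secretes cerebrospinal fluid. One plexus lies along the edge of the hippocampus. Its cells express Htr2c and Trpm3 strongly, and Htr2c is also found in neurons. The miR-204 and miR-211 pair is best known from pigmented epithelium of the eye and from melanocytes.

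All 7 genes had mature sequences in RefSeq (build GRCm38.p6), 12 in all. The following are shown because seed and near-identity decide which of the counts can stand for separate products. Capitals mark the seed.
miR-204-5p: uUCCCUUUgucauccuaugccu
miR-211-5p: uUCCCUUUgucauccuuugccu
miR-204-3p: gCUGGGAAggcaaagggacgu
miR-211-3p: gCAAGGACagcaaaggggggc
miR-1298-5p: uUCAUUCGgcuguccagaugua
miR-1298-3p: cAUCUGGGcaacugauugaacu
miR-1264-3p: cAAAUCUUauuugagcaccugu
miR-448-3p: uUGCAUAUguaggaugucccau
miR-764-5p: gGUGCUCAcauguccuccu

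Among the members, miR-204-5p and miR-211-5p were the sole pair with a common seed. They were identical at 21 of 22 bases and differed by A17U, counted from 1 at the 5′ end of miR-204-5p, outside the seed. Their 3p arms differed at 7 of 21 bases and had different seeds. One other mature RNA of the RefSeq table, miR-7670-3p, carried the miR-204-5p seed, and its gene Mir7670 had 0 counts in both libraries. None of the Htr2c-hosted microRNAs had the seed of another member. Outside the members, miR-764-3p shared its seed with miR-7062-5p, whose gene Mir7062 was at 3.10 and 3.05 CPM. The seed of miR-204-3p was also that of miR-7684-5p, whose gene Mir7684 was at 0 CPM in both libraries. Each of the 12 mature sequences lay in its own hairpin and was found exactly in no other of the 2202 annotated hairpins, on either strand. With 1 mismatch allowed, the sole hits were miR-204-5p in Mir211 and miR-211-5p in Mir204. The rest of the genome was not searched.

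In mm10, chromosome 19 holds Mir204 (ENSMUSG00000065507.3) at positions 22750605 to 22750672, intronic in 15 of 17 coding Trpm3 transcripts and in the sixth intron of the principal one. Chromosome 7 holds Mir211 (ENSMUSG00000065585.1) at positions 64205806 to 64205911, intronic in 8 of 13 coding Trpm1 transcripts and likewise in the sixth intron of the principal one. Both are therefore at the same intron number of related channel genes. The 5 other genes lie in Htr2c on the X chromosome, which spans 146962513 to 147197277, and in introns of all 4 of its coding transcripts. In order along the host they are Mir764 (147002259 to 147002366), Mir1912 (147009441 to 147009527), Mir1264 (147010601 to 147010686), Mir1298 (147064905 to 147065002) and Mir448 (147158210 to 147158321). The first 4 of these lie in the second intron of the transcript Htr2c-201 and Mir448 in the fourth. Mir1912 and Mir1264 are 1.07 kb apart, whereas Mir1298 is 54.2 kb from Mir1264 and 93.2 kb from Mir448. All 7 genes are on the strand of their host, overlap no annotated gene besides it, and had 0 counts on the opposite strand in both libraries.

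Levels are counts per 1000000 (CPM) of the reads assigned to microRNA genes, 5481053 in replicate 1 and 4266963 in replicate 2. Reads matching several places, 41.9% and 46.4% of the 2 tables, are in no gene count. Intervals are exact 95% intervals that cover counting error only and treat each read as independent. PCR copies are not independent molecules, so the intervals may be too narrow even for that error. A count of 0 allows up to 3 counts, or 0.547 CPM in replicate 1 and 0.703 CPM in replicate 2. Of the 17 genes of the neuron-enriched list, 14 were detected, meaning at least 2 CPM in each library, beside 433 of all 2202 genes. The list summed to 60130 and 83470 CPM. Several of its entries are loci of the same microRNA, and reads that such loci share are in no gene count. Mir124a-1, the highest of the Mir124a loci, was at 3.28 and 4.69 CPM. The tables hold microRNA genes alone, so the transcripts of Trpm3, Trpm1 and Htr2c and the mRNA markers of the choroid plexus were not measured.

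Together the 7 genes took 0.0816% of microRNA counts in the replicate 1 library and 0.112% in the other. Of the 7, 5 were detected: Mir204, Mir1298, Mir1264, Mir448 and Mir764. Mir204 alone gave 80.9% and 76.7% of the members' counts. In bulk tissue, fewer cells of a type and less RNA per cell cannot be told apart, and this holds for every level below.

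**Figure D1:**
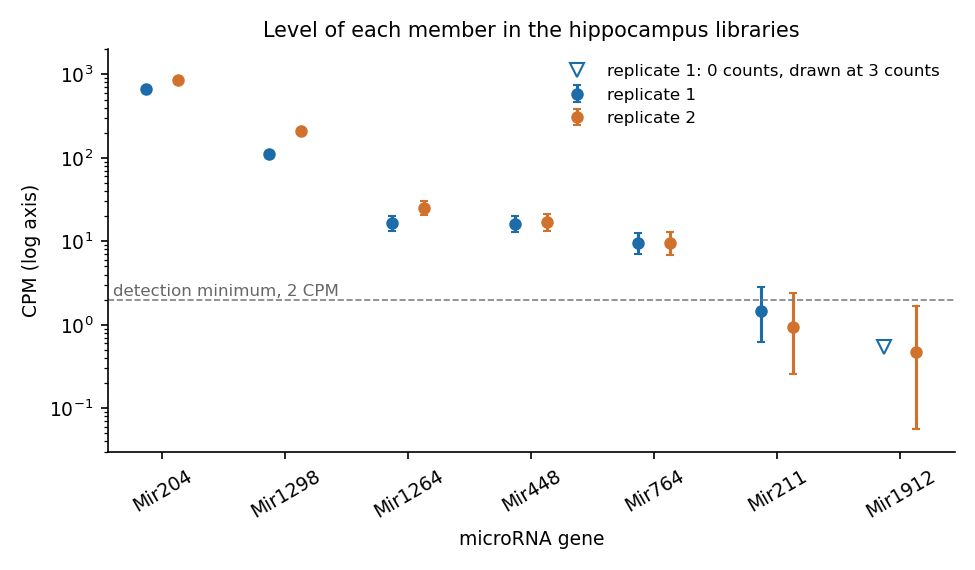
CPM of each of the 7 genes on a log axis, with 1 point per library and bars for the exact 95% counting interval; an open triangle stands for 0 counts and is drawn at 3 counts. Mir204 lies at 660 and 858 CPM, 4 Htr2c-hosted genes lie above the dashed minimum of 2 CPM, and Mir211 and Mir1912 lie below it.

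Mir204, the Trpm3-hosted member, was the most abundant of the 7. It had 3618 counts (660 CPM, interval 639 to 682) in replicate 1 and 3660 counts (858 CPM, 830 to 886) in replicate 2, a mean of 759 ± 140 CPM (SD, n = 2). It ranked 125th and 119th of the 2202 genes. Replicate 2 was the higher library, and the intervals do not overlap.

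Mir211, its near-copy in Trpm1, was close to the floor. It had 8 counts (1.46 CPM, interval 0.630 to 2.88) in replicate 1 and 4 counts (0.937 CPM, 0.255 to 2.40) in replicate 2. The intervals overlap and both reach above the detection minimum. For each Mir211 count there were 452 Mir204 counts in replicate 1 (229 to 1048) and 915 in replicate 2 (357 to 3360). Of the counts at this pair of genes, nearly all were thus at Mir204. The counts are per gene and do not separate the arms, and how many Mir211 counts are Mir204 reads with a changed base at position 17 was not tested.

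Mir1298 was the most abundant Htr2c-hosted member. It had 612 counts (112 CPM, interval 103 to 121) in replicate 1 and 883 counts (207 CPM, 194 to 221) in replicate 2, a mean of 159 ± 67.4 CPM (SD, n = 2). The intervals of the libraries do not overlap. It ranked 190th and 188th. Mir204 was 5.91 times as abundant in replicate 1 (5.42 to 6.45) and 4.14 times in replicate 2 (3.85 to 4.47).

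Mir1264 had 91 counts (16.6 CPM) in replicate 1 and 108 counts (25.3 CPM) in replicate 2, a mean of 20.96 ± 6.16 CPM (SD, n = 2). Mir448 had 89 counts (16.2 CPM) and 72 counts (16.9 CPM), a mean of 16.6 ± 0.450 CPM. These neighbours in the order of levels could not be told apart in replicate 1, where Mir1264 was 1.02 times Mir448 (0.755 to 1.39), whereas in replicate 2 it was 1.5 times Mir448 (1.10 to 2.05). Mir764 had 52 counts (9.49 CPM) and 41 counts (9.61 CPM), a mean of 9.55 ± 0.0859 CPM. It was below Mir448 in both libraries, with Mir448 at 1.71 times its level (1.202 to 2.46) and 1.76 times (1.18 to 2.64).

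Mir1912 had 0 counts in replicate 1 and 2 counts in replicate 2 (0.469 CPM, interval 0.0568 to 1.69), at or under the floor in both. It is the gene nearest to Mir1264, which had 91 and 108 counts, so the level differed between hairpins 1.07 kb apart in 1 intron. Per 100 bases of annotated hairpin the mean CPM was 1116 for Mir204, 163 for Mir1298, 24.4 for Mir1264, 14.8 for Mir448, 8.84 for Mir764, 1.13 for Mir211 and 0.269 for Mir1912. That order is the same as without the length.

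**Figure D2:**
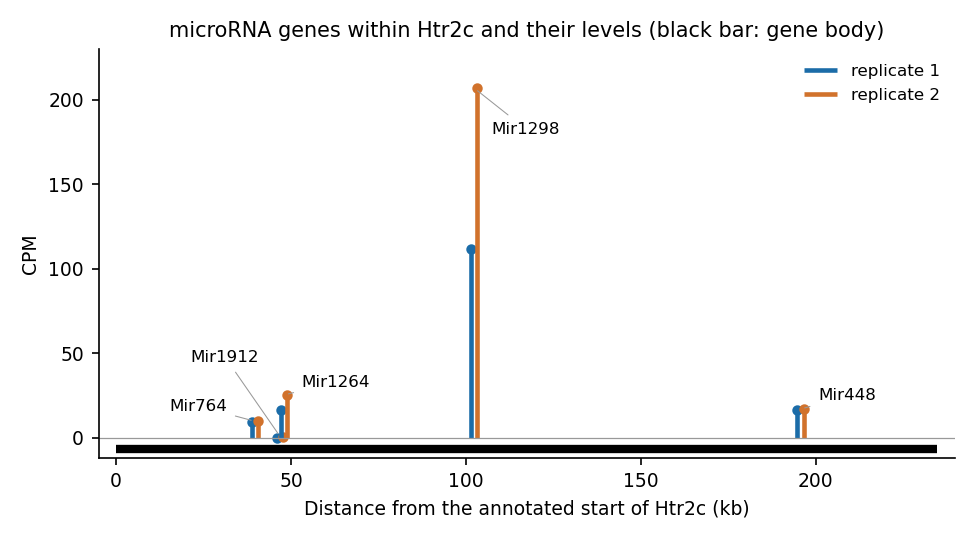
CPM (linear axis) of the 5 microRNA genes within Htr2c against distance in kb from its annotated start, with 1 stem per library drawn side by side and the gene body as a black bar. Mir1298, 102 kb into the gene, stands at 112 and 207 CPM, whereas the other 4 genes lie at or below 25.3 CPM.

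Within Htr2c the counts were unevenly spread, and their make-up differed between the libraries. Mir1298 gave 72.5% of the 844 Htr2c-hosted counts in replicate 1 (Clopper-Pearson interval 69.4 to 75.5) and 79.8% of 1106 in replicate 2 (77.3 to 82.2), and the intervals do not overlap. Mir448 held a larger share in replicate 1, 10.5% (8.55 to 12.8), than in replicate 2, 6.51% (5.13 to 8.13), again without overlap. The shares add up to the whole, so a larger share of Mir1298 leaves smaller ones for the other genes. In CPM Mir448 was at 16.2 in replicate 1 and 16.9 in replicate 2. Mir764 held 6.16% (4.64 to 8.001) and 3.71% (2.67 to 4.996), and here the intervals overlap, which does not show that its share was the same. Its share fell about as much as that of Mir448, since Mir448 was 1.71 times Mir764 in replicate 1 and 1.76 times in replicate 2. Mir1264 held 10.8% (8.77 to 13.1) and 9.76% (8.08 to 11.7), which also overlap. These shares compare genes within a library and so do not depend on how the libraries are scaled.

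**Figure D3:**
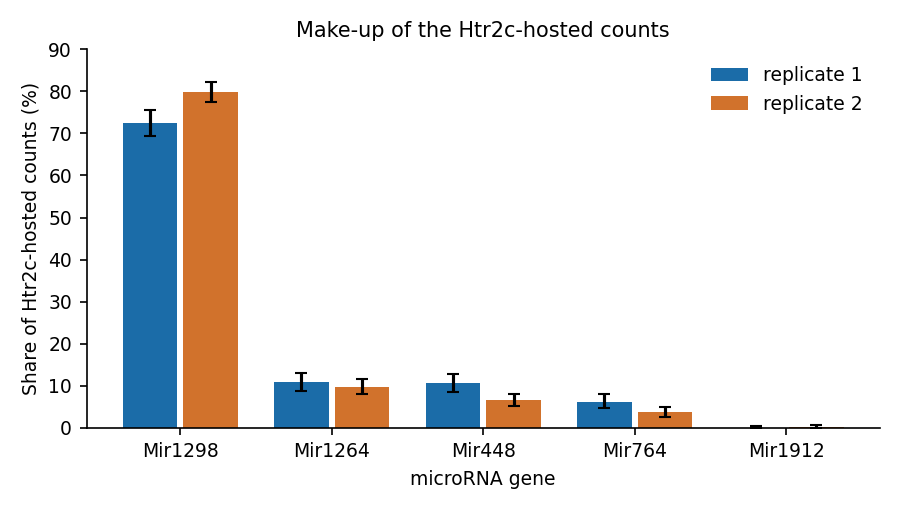
Share of the Htr2c-hosted counts (percent, bars from 0) for each of the 5 genes, with 1 bar per library and exact 95% Clopper-Pearson intervals. Mir1298 holds 72.5% and 79.8%, and Mir448 holds 10.5% and 6.51%.

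The replicates were then compared gene by gene with a two-sided exact binomial test of the counts given the library totals, and p-values were adjusted by Benjamini-Hochberg over the 579 genes whose counts in both libraries add up to 10 or more. With 1 library on each side the test compares these 2 libraries and no condition. Of the 579 genes, 68.9% differed at an adjusted p under 0.05, 42.0% being higher in replicate 2 and 26.9% lower. Of the 6 members tested, 3 differed, all higher in replicate 2. Mir1912 had too few counts. Requiring a ratio of at least 1.5 as well left 2 of the 6, Mir1298 and Mir1264, both higher in replicate 2, where 55.8% of all tested genes passed, 34.4% being higher and 21.4% lower. Differences between these libraries were thus common in the whole table.

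Mir1298 was 1.85-fold higher in replicate 2 (interval 1.67 to 2.06, adjusted p = 6.81e-32, exact binomial test). With edgeR TMM scaling it was 1.45-fold higher (adjusted p = 4.34e-12), and with DESeq2 size factors 1.44-fold (adjusted p = 6.25e-12). Mir1298 was the sole member called under all 3 scalings.

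Mir204 was 1.30-fold higher in replicate 2 (1.24 to 1.36, adjusted p = 2.01e-28, exact binomial test), but its call rested on the scaling. With TMM its ratio was 1.01 (adjusted p = 0.637) and with DESeq2 size factors 1.01 (adjusted p = 0.698). The DESeq2 size factors were 1 and 1, and the TMM totals were 4839809 and 4832309. Both settings thus compare nearly the raw counts, and their results are alike for that reason. Mir1264 was 1.52-fold higher (1.14 to 2.04, adjusted p = 0.00548), and with TMM its ratio was 1.19 (adjusted p = 0.285). TMM moved the median log2 ratio of the 433 detected genes from 0.27 to -0.07, and that of the 5 detected members from 0.38 to 0.02.

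The other tested members missed the threshold. Mir448 had a ratio of 1.04 (0.751 to 1.43, adjusted p = 0.846, exact binomial test) and Mir764 of 1.01 (0.656 to 1.55, adjusted p = 1). With TMM these ratios were 0.810 and 0.790, so their direction depends on the scaling. Mir211 had a ratio of 0.642 on 12 counts in all (0.142 to 2.40, adjusted p = 0.621). The intervals of Mir764 and Mir211 include the 1.52-fold ratio of Mir1264. That of Mir448 ends below it but overlaps the interval of Mir1264, 1.14 to 2.04. Whether the ratios of Mir448 and Mir1264 differ was not tested.

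**Figure D4:**
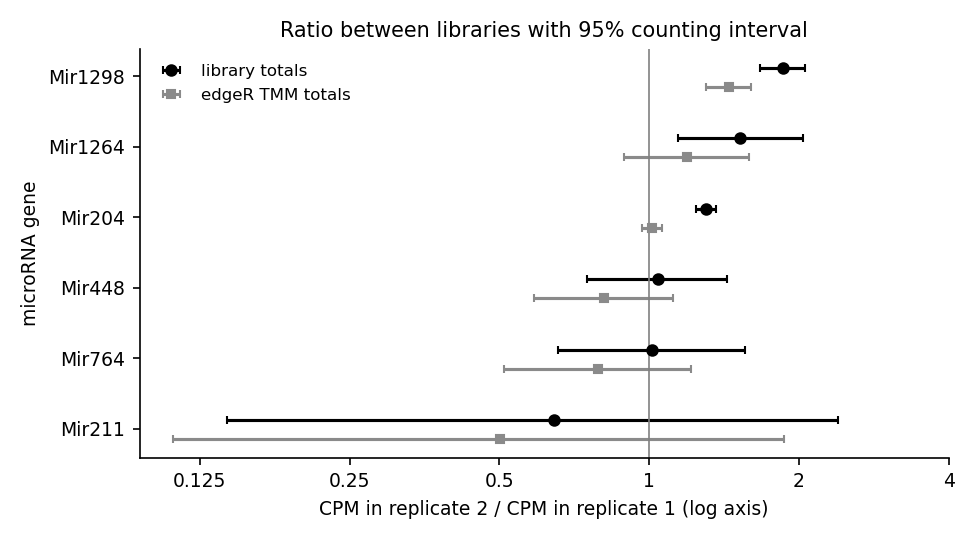
Ratio of CPM in replicate 2 to CPM in replicate 1 (log axis) for the 6 tested members with 95% counting intervals, scaled by library totals (black circles) and by TMM (grey squares). The Mir1298 interval lies above 1 under both, whereas that of Mir204 lies above 1 with library totals, at 1.24 to 1.36, and spans 1 with TMM.

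Set against Mir204, which removes the scaling, the Htr2c-hosted sum was 23.3% of the Mir204 count in replicate 1 (21.6 to 25.1) and 30.2% in replicate 2 (28.2 to 32.3). The difference came with Mir1298, at 16.9% (15.5 to 18.4) and 24.1% (22.4 to 26.0) of Mir204. Mir1264 was at 2.52% (2.02 to 3.10) and 2.95% (2.41 to 3.57) of Mir204, and Mir448 at 2.46% (1.97 to 3.04) and 1.97% (1.54 to 2.48), each with overlapping intervals. In absolute level the Htr2c-hosted sum was 154 CPM (144 to 165) and 259 CPM (244 to 275), a 1.68-fold difference (1.54 to 1.84) that became 1.31-fold with TMM. Mir1298 was 6.88 times Mir448 in replicate 1 (5.50 to 8.69) and 12.3 times in replicate 2 (9.64 to 15.8).

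Lists of microRNAs from ciliated and epithelial cells were set beside the members, since the choroid plexus is a ciliated epithelium. The ciliated list stands for choroid plexus and ependyma, the lining of the ventricles, and does not tell the 2 apart. Mir34b, Mir34c, Mir449a, Mir449b and Mir449c, which act in building motile cilia, summed to 322 CPM in replicate 1 and 1446 CPM in replicate 2. Of the 5, 3 were detected and 4 tested, of which 2 were higher and none lower, or 1 higher, Mir449a, with TMM or DESeq2 size factors. Mir449a went from 101 to 1139 CPM (11.3-fold), whereas Mir34c went from 213 to 296 CPM (1.38-fold), a ratio close to that of Mir204. The log2 ratios of Mir34c and Mir204 were 0.47 and 0.38, beside a median of 0.27 over all detected genes. With TMM they were 0.11 and 0.02, beside a median of -0.07.

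The epithelial list, led by the miR-200 family that maintains epithelial identity, had larger ratios than any member. All 7 of its genes were higher in replicate 2, beside 42% of all tested genes. The lists were chosen with earlier results of these data known, so counts of their genes are descriptive only. The epithelial sum was 111 CPM in replicate 1 and 6267 CPM in replicate 2, a 56.5-fold difference (44.1-fold with TMM). Mir200c was at 19.5 and 2706 CPM and Mir429 at 22.8 and 1697 CPM. Mir31, which is also found in epithelia but was placed in another list, was lower in replicate 2, at 356 and 250 CPM (ratio 0.704, adjusted p = 2.16e-20, exact binomial test). The sensory cluster of Mir182, Mir183 and Mir96, known from retina and hair cells, had 3 of 3 genes higher, with a sum of 28.3 and 1839 CPM. Mir183 was at 17.9 and 898 CPM and Mir182 at 10.2 and 895 CPM. No gene of these 3 lists was at 0 in both libraries. The ratios of Mir204 and Mir1298 were 1.30 and 1.85 beside these, and the part of the cells behind the ciliated and epithelial lists in the Mir1298 difference was not tested.

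**Figure D5:**
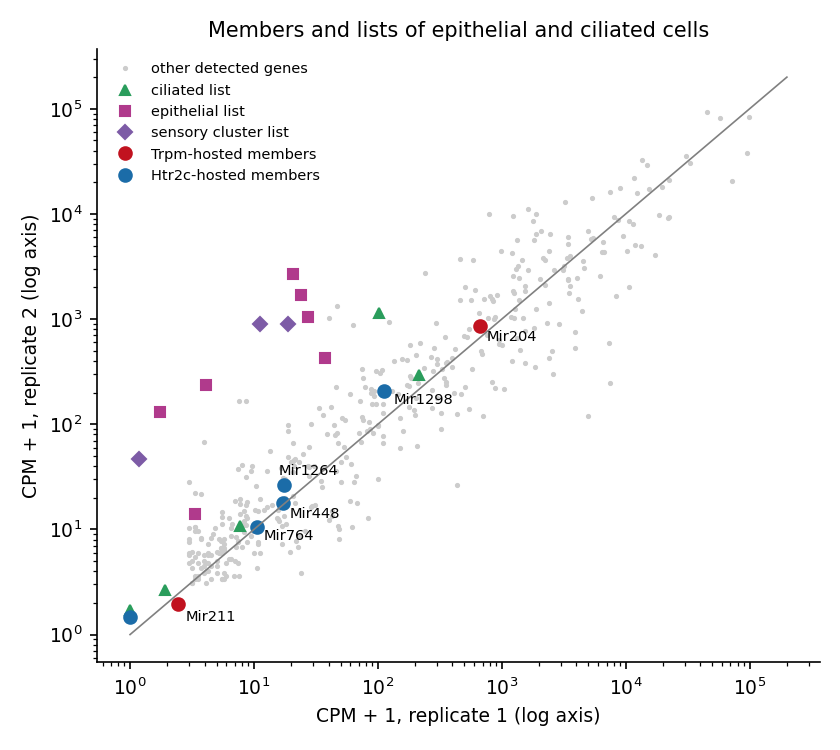
CPM + 1 in replicate 2 against replicate 1 (both log axes) for detected genes (grey), the ciliated, epithelial and sensory lists, and the members by host, with the line of equality. The members lie near the line, whereas the epithelial and sensory lists lie far above it, as Mir200c does at 19.5 and 2706 CPM.

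Lists of other cells of the tissue went the opposite way or were split. The oligodendrocyte pair was lower in replicate 2 in 2 of 2 genes, with Mir219a-2 at 4960 and 119 CPM and Mir338 at 1530 and 765 CPM. Mir219a-1, another locus of the same family that was not in the list, was higher, at 12.4 and 54.8 CPM (ratio 4.42). Endothelial and mural genes were lower in 3 of 3, with Mir126a at 18708 and 9834 CPM and Mir143 at 3099 and 2947 CPM. The Mir143 difference was small with library totals (ratio 0.951, log2 ratio -0.07), and its log2 ratio was -0.43 with TMM. Among microglial and immune genes 3 of 5 were higher and 2 lower. The 2 lower ones were also the most abundant, Mir150 at 1215 and 397 CPM and Mir146 at 681 and 500 CPM. Of the neuron-enriched list 8 of 16 tested were higher and 6 lower. Its 2 most abundant genes were both among the higher, Mir149 at 13509 and 32894 CPM and Mir128-1 at 11606 and 21819 CPM. The numbers of genes called in these 4 lists were the same with TMM and with DESeq2 size factors. Counts of Mir128-1 and Mir219a-2 are uncertain because their products have copies elsewhere in the genome.

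The genes closest to each detected member were found by Euclidean distance of log2(CPM + 1) over the 2 libraries, which joins level and ratio and with 2 points says little more. Nearest to Mir204 were Mir300 (543 and 806 CPM, distance 0.30), Mir21a (770 and 1018 CPM, 0.33) and Mir351 (764 and 709 CPM, 0.34). Nearest to Mir1298 were Mirlet7a-2 (105 and 207 CPM, distance 0.09), Mir376b (129 and 204 CPM, 0.21) and Mir410 (92.3 and 205 CPM, 0.27). Mir1264 was nearest to Mir135a-2 (15.3 and 25.8 CPM), Mir7j and Mir1969, Mir448 to Mir7066 (16.2 and 17.3 CPM), Gm49347 and Mir3070b, and Mir764 to Mir5132 (8.76 and 8.67 CPM), Mir6897 and Mir6945. Mirlet7a-2 and Mir135a-2 also have copies elsewhere, which makes their counts uncertain. No detected member was among the 3 nearest genes of another. Mir211 and Mir1912 could not enter because they were not detected. The members' levels lay far apart, so nothing about a shared host is drawn from this.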

How the data were processed

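The authors deposited 1 table of read counts per library without a header line, and per the file headers of the accompanying text reads were placed on mm10 and counted over GENCODE M21. Neither the aligner nor the trimming and counting settings are given in the sources used. Of 3 value columns, the strand column that holds nearly all gene counts was used. Rows that name no gene stayed out of library sizes (unmapped reads were 17.1% and 17.2%, reads outside microRNA genes 5.56% and 5.17%). The tables account for 15474606 and 13677083 reads. Reads of the CAST/EiJ allele can be placed less often on mm10, and no allele was analysed.

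CPM, intervals and exact binomial tests were computed with Python 3.11.15 and scipy 1.17.1, and alternative scalings with edgeR 4.0.16 and DESeq2 1.42.0. The log2 ratios use CPM + 1. The test was checked on data simulated with counting error alone and known library totals. That is the test's own model, so the check does not cover scaling or other differences between real libraries. Replicates may differ technically as well as biologically, and p-values cover counting error alone, with each read taken as independent. Named genes are the members, the 3 nearest genes of each detected member, and the 2 most abundant detected genes of each of 8 lists. A few others are named where the text says why. Members and lists were chosen with earlier results of these data known. Alternatives were the counts without strand, TMM, DESeq2 size factors, no count filter, other detection, fold and pseudocount values, another CPM denominator, and each replicate alone.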

Additional observations from a re-analysis of the deposited data

How the results depend on the processing

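The count of 5 detected members held in all 6 alternatives tried, each replicate alone included. The 3 members that differed between libraries became 1, Mir1298, with TMM and with DESeq2 size factors, where 67.4% and 66.3% of all tested genes differed. The 2 members that differed by at least 1.5-fold became 1 with counts without strand and 0 with TMM, with DESeq2 size factors or with a minimum of 2-fold. Of all tested genes, 54.9%, 54.7% and 53.9% passed 1.5-fold with counts without strand, TMM and DESeq2 size factors, and 255 of 579 passed 2-fold. Of all genes called, 60.9% were higher in replicate 2 with library totals, 47.2% with TMM and 46.6% with DESeq2 size factors. Log2 ratios reversed for Mir448 (0.05 with library totals, -0.29 with TMM, -0.29 with DESeq2 size factors) and for Mir764 (0.02, then -0.31 and -0.31, and -0.0074 with counts without strand). The cause was not tested beyond the scaling itself. The summed Htr2c-hosted level of 207 CPM became 67.7 per 1000000 of all reads in the table, since that denominator is larger by construction, and ranged from 154 to 259 CPM with 1 replicate left out. No paired analysis was possible because there is a single group. Depth limits Mir211 and Mir1912, which rest on 12 and 2 counts.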

Other observations

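The pigment and lens list, Mir184 and Mir31, had both genes detected and none higher in replicate 2, and 1 of the 2, Mir31, was lower (both with TMM or DESeq2 size factors). Mir31, a microRNA of epithelial and other tissues, was at 356 and 250 CPM, and Mir184, abundant in lens and cornea, at 20.3 and 16.9 CPM. In CPM Mir184 was near Mir448 and Mir1264, and Mir211 was below both genes of the list, at 1.46 and 0.937 CPM.

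GENCODE M21 places 7 microRNA genes inside Htr2c, of which 2 are not members. Gm22650, on the host's strand on the X chromosome from 146999405 to 146999509, had 10 counts in replicate 1 and 0 in replicate 2 (adjusted p = 0.00564, exact binomial test between the libraries). Gm24627 (147106939 to 147107076) had 0 counts in both. Mir6416, on the strand opposite to Trpm1, had 0 in both as well. These genes were looked up after the members' values were seen.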
